A study of Mus musculus with 12 samples.

Results

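The comparison is of LOXL2 knockdown with control in mouse embryonic stem cells that had not been treated with RA. It rests on 6 of the 12 arrays of the series, taken by their titles: 3 of E14 cells, an established mouse embryonic stem cell line, transduced with a control short hairpin RNA (shCT), and 3 of E14 cells transduced with a hairpin against LOXL2 (shLOXL2), all at day 0. The other 6 arrays are of the same 2 constructs at day 1 with RA, read here as retinoic acid, and serve only for comparison. Since no group without RA was taken at day 1, RA and a day of culture cannot be told apart. The labels give neither the hairpin's sequence nor whether more than 1 hairpin was used, and they do not name the replicate arrays as independent cultures. The p-values thus cover the spread among the arrays, which may be technical. Each array gave a log2 signal (1 unit is a doubling) for 41345 transcript clusters, the array's unit for a transcribed locus, and 22180 named genes were tested.

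LOXL2 belongs to the lysyl oxidases, copper-dependent enzymes that oxidise lysine side chains. Outside the cell they crosslink collagen and elastin. LOXL2 has also been described in the nucleus, where histone H3 and TAF10, part of the basal transcription complex TFIID, are reported substrates. Embryonic stem cells in culture are kept undifferentiated by a network of transcription factors around Pou5f1, Sox2 and Nanog, and the title of the series places the knockdown in the study of genes that need LOXL2 when such cells differentiate under RA.

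The 6 arrays had close medians, 4.58 to 4.66 log2 units, and their correlations over all clusters lay between 0.949 and 0.985. The arrays did not sort by construct. The closest pair was shCT replicate 3 with shLOXL2 replicate 1, and the most distant pair was shCT replicates 1 and 3. Over all 12 arrays, 1 axis held 49.4% of the variance within groups. On it shCT replicate 1 (score -0.504) lay opposite to shCT replicate 3 (0.436) and shLOXL2 replicate 1 (0.395), and the other 3 arrays lay between -0.27 and 0.068. Of 8 listed markers of embryonic stem cells 7 were measured, and all 7 exceeded the median of all gene values, 5.03 log2 units. Single markers had means of 5.52 to 10.7. The mean of the 7 was 8.51 to 8.74 per shCT array and 8.59 to 8.64 per shLOXL2 array. Of 9 fibroblast or feeder cell markers, 3 exceeded that median, and their mean was 4.28 to 4.60 per shCT array and 4.29 to 4.48 per shLOXL2 array. All 6 primitive endoderm and 4 of 5 neural progenitor markers also exceeded that median, as did 1 of 4 mesoderm and 2 of 5 trophectoderm markers. The 6 primitive endoderm markers differed most between arrays of a group, with means of 5.79 to 6.92 per shCT array and 5.88 to 5.997 per shLOXL2 array.

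The hairpin's target was lower in the shLOXL2 arrays in 1 of its 2 clusters. Both clusters are annotated to Loxl2 and also to the predicted gene Gm21451, so their signal cannot be split between these genes. Cluster 17301634 read 5.64, 5.17 and 5.71 log2 units in shCT and 4.79, 4.96 and 5.07 in shLOXL2. All 3 knockdown arrays lay below all 3 control arrays, and the closest gap was to shCT replicate 2. The difference was -0.57 ± 0.20 log2 units (SE, n = 3 per group), which is 67.5% of the control level with a 95% interval of 50% to 91.2%. By the exact permutation test its two-sided p was 0.1, and 3 arrays against 3 allow no smaller value; limma's adjusted p over all clusters was 1. With array weights, an alternative fit that lets noisy arrays count less, the difference was -0.28. Cluster 17301670 read 4.92, 4.58 and 5.27 in shCT and 4.58, 4.69 and 5.03 in shLOXL2, so the groups overlapped. Its difference was -0.16 ± 0.22 log2 units, 89.6% of control (95% interval 63.7% to 126%; exact permutation p of 0.6), and without shCT replicate 3 it was 0.02. With RA the same clusters differed by -0.91 and -1.08 log2 units, each with groups that did not overlap (exact permutation p of 0.1). For cluster 17301670 the difference with RA was larger than that without by 0.92 ± 0.32 log2 units in size, and this contrast had an adjusted p of 1 in limma.

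The other lysyl oxidases and the listed TFIID subunits overlapped between the groups. Loxl4 differed by 0.19 ± 0.14, Loxl1 by 0.09 ± 0.14, Lox by -0.12 ± 0.14 and Loxl3 by -0.17 ± 0.23 log2 units. The 2 clusters that hold Taf10, both shared with Ilk, read 97% and 92.2% of control. Of the 15 other TFIID subunits measured, 11 were lower and 4 higher in shLOXL2, with differences of -0.17 (Taf8) to 0.21 (Taf9b) log2 units, and none had groups that did not overlap. Taf7l, a germ cell paralogue of Taf7 that was listed with the germline genes, read 3.51, 4.11 and 4.10 in shCT and 4.72, 4.65 and 4.49 in shLOXL2. Its groups did not overlap without RA (0.72 ± 0.21 log2 units; limma, adjusted p of 0.767) or with RA (0.77 ± 0.21).

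No gene passed the test across all genes. With limma, 0 of 22180 genes (0%) had an adjusted p under 0.05, and 1037 (4.68%) had an unadjusted p under 0.05, 493 of them (2.22%) higher and 544 (2.45%) lower in shLOXL2. The lowest adjusted p was 0.167. The groups did not overlap, here called separated, for 1826 genes (8.23%): 931 (4.2%) were higher and 895 (4.04%) lower in all 3 shLOXL2 arrays. The median difference over all genes was 0.006 log2 units, and the central 95% of genes lay between -0.37 and 0.35, while the 95% interval of a typical gene reached 0.35 log2 units to either side. Differences of more than 0.5 log2 units were seen for 313 genes, 136 higher and 177 lower, and 184 of them had groups that did not overlap. The count of called genes depended on how the spread between arrays was treated. With limma's array weights, 2875 genes were called. The shCT weights were 0.332, 6.26 and 0.479 and the shLOXL2 weights 0.39, 3.08 and 0.763, so replicate 2 counted most in each group. A fit with the axis within groups as a covariate called 22. That axis was computed from the deviations within groups, so it left the differences unchanged and took out part of the spread. Weights and axis both came from these same values, so neither count is independent evidence.

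Only 4 genes differed by more than 1 log2 unit. Where values of a gene are set against each other, those of shCT come first and those of shLOXL2 second. Egln3, described with the hypoxia genes below, and Mir302a, a microRNA gene of the cluster typical of embryonic stem cells, were lower. Mir302a read 3.15, 3.98 and 3.01 in shCT and 2.32, 2.19 and 2.22 in shLOXL2, values near the bottom of the array's range. The predicted genes Gm11543 and Gm11546 were higher by 1.04 log2 units each. Gm11543 read 5.87, 6.81 and 6.94 in shCT against 8.33, 7.27 and 7.13, and the highest value was that of shLOXL2 replicate 1.

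The smallest p-values among lower genes were those of Map4k4, Egr1 and Tbc1d5. Map4k4, a kinase upstream of stress-activated MAP kinases and of the Hippo pathway, read 8.64, 8.61 and 8.64 in shCT and 7.70, 7.97 and 7.97 in shLOXL2. The control arrays were almost equal and all knockdown arrays lay well below them. The difference was -0.75 ± 0.11 log2 units, 59.6% of control (limma, adjusted p of 0.167). Egr1, an immediate early transcription factor induced by growth factors, read 7.77, 7.95 and 7.55 against 6.52, 6.95 and 6.86, a difference of -0.98 ± 0.15 log2 units or 50.6% of control (adjusted p of 0.167). Tbc1d5, a Rab GTPase-activating protein of endosome recycling, read 6.01, 5.96 and 6.13 against 5.33, 5.36 and 5.26, with spreads within each group far below the gap between them (-0.72 ± 0.12, adjusted p of 0.27).

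Frem2, an extracellular matrix protein of embryonic basement membranes, read 5.87, 5.57 and 5.69 against 5.19, 4.85 and 4.76, a difference of -0.78 ± 0.14 log2 units (limma, adjusted p of 0.27). Further genes that were lower with groups that did not overlap were Sema3e, a guidance ligand of plexin receptors, at -0.84 ± 0.21, B4galnt2, a glycosyltransferase, at -0.92 ± 0.29, Gap43, a growth cone protein, at -0.77 ± 0.18, and Ephx2, the soluble epoxide hydrolase, at -0.77 ± 0.18 log2 units.

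Robo4, Sohlh2 and Epas1 were among the genes that were higher in shLOXL2. Robo4, a receptor of the Roundabout family known from endothelial cells, read 4.997, 5.32 and 4.91 in shCT and 5.87, 5.87 and 6.13 in shLOXL2. Its difference was 0.88 ± 0.15 log2 units, 184% of control (limma, adjusted p of 0.27). Sohlh2, a helix-loop-helix factor of early germ cell differentiation, read 7.15, 7.17 and 7.19 against 7.67, 8.20 and 8.47, so that tight control arrays faced spread-out knockdown arrays (0.94 ± 0.18, adjusted p of 0.332). Epas1, which encodes the hypoxia-inducible factor subunit HIF-2alpha, read 6.93, 6.96 and 6.52 against 7.53, 7.58 and 7.51, a difference of 0.74 ± 0.16 log2 units (adjusted p of 0.49). Calcoco2, an autophagy receptor, was higher by 0.96 ± 0.21, Upk1a, a urothelial tetraspanin, by 0.88 ± 0.19, and Erbb3, a receptor for neuregulins, by 0.54 ± 0.12 log2 units. None of their groups overlapped. Of the 17 measured genes of the germline and meiosis list, which does not hold Sohlh2, 1 was separated higher (Taf7l) and 1 lower (Prdm1, -0.38 ± 0.13). Together they are 11.8% of the list, beside 8.23% of all genes separated.

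2 carriers of the inner mitochondrial membrane were among the larger differences. Mpc1, a component of the carrier that brings pyruvate into mitochondria, read 7.40, 8.07 and 7.93 in shCT and 8.44, 8.73 and 8.92 in shLOXL2, a difference of 0.90 ± 0.21 log2 units, 186% of control (limma, adjusted p of 0.534). Slc25a20, the carnitine and acylcarnitine carrier, read 7.10, 6.81 and 6.79 against 7.35, 7.65 and 7.79 (0.70 ± 0.15, adjusted p of 0.49). All knockdown arrays were above all control arrays for both carriers. With RA the same differences were 1.17 and 0.84 log2 units, again without overlap. Cpt1a, which makes the acylcarnitines that Slc25a20 carries, differed by 0.48 ± 0.27 with groups that overlapped. The other 18 of 21 measured genes of mitochondrial pyruvate and fatty acid entry overlapped as well. The 2 separated carriers are 9.52% of the list, near the 8.23% of all genes that were separated. The median of the list was 0.007 log2 units.

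**Figure D1:**
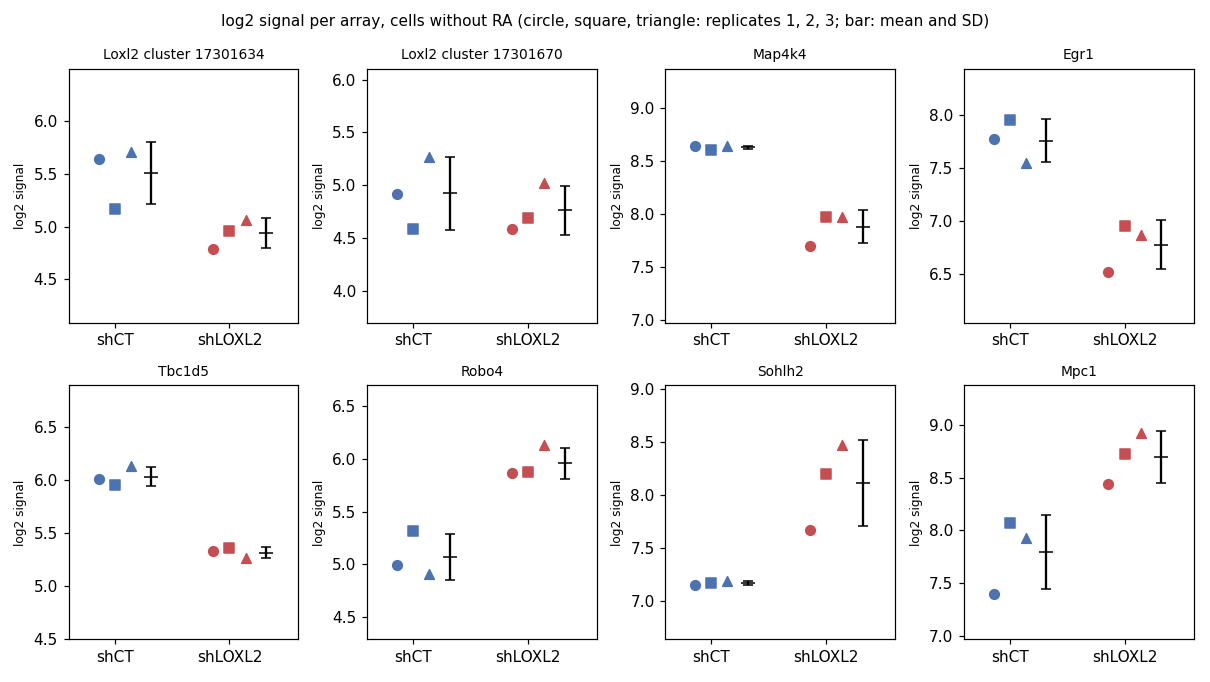
Log2 signal on each array without RA for both Loxl2 clusters and 6 named genes, with shCT in blue and shLOXL2 in red. Circles, squares and triangles are replicates 1, 2 and 3, and bars give the mean and SD of 3 arrays. The groups overlap for Loxl2 cluster 17301670 and for none of the other 7 features drawn.

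The list of hypoxia-responsive and glycolytic genes held the most genes with separated groups. Cells sense oxygen through prolyl hydroxylases such as Egln1 and Egln3, which mark the HIF alpha subunits for degradation, and HIF activates genes of glucose uptake, glycolysis and matrix protein hydroxylation at sites with the core ACGTG. Of 25 measured genes of the list, 21 (84%) were lower in shLOXL2, beside 48.3% of all genes, and 8 (32%) were lower with groups that did not overlap, beside 4.04% of all genes. None was higher without overlap. None passed limma's adjusted threshold, and 6 had an unadjusted p under 0.05. The median difference was -0.20 log2 units, beside 0.006 for all genes. It was -0.05 with array weights and lay between -0.27 and -0.12 when single arrays were left out. The mean of the list per array was 8.046, 7.78 and 8.116 in shCT and 7.628, 7.785 and 7.784 in shLOXL2. The level of shCT replicate 2 thus lay among the knockdown arrays, and the higher control level came from shCT replicates 1 and 3. Without shCT replicate 2, 13 members (52%) were lower without overlap, beside 7.12% of all genes. Without shCT replicate 1, the array with the highest endoderm markers, the median was -0.16 and 20 of 25 genes were lower, and 8 were lower without overlap, beside 8.32% of all genes.

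The promoters of the 8 genes are shown because these genes were lower together and because the HIF core can be looked for in them. Each stretch is part of the 250 bases before the gene's start, from RefSeq (GRCm38.p6), printed 5′ to 3′ along the gene's strand with ACGTG or its reverse complement CACGT in capitals.
Slc2a1, chr4:119108679-119108743, plus strand: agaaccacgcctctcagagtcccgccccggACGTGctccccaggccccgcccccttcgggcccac
Pgk1, chrX:106186920-106187003, plus strand: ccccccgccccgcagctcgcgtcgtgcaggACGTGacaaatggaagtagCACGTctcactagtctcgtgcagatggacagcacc
Ldha, chr7:46845629-46845803, plus strand: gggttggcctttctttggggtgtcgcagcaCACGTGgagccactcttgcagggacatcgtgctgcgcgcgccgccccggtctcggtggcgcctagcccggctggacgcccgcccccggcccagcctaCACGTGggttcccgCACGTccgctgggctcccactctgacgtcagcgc
Pgam1, chr19:41911727-41911791, plus strand: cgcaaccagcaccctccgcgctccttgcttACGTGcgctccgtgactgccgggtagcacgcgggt
Egln3, chr12:54204069-54204124, minus strand: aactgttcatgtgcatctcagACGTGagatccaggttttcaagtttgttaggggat
Ddit4, chr10:59951923-59951987, minus strand: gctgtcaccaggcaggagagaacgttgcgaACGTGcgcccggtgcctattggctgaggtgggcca
P4ha1, chr10:59323250-59323295, plus strand: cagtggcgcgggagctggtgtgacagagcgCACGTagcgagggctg
P4ha2, chr11:54100816-54100880, plus strand: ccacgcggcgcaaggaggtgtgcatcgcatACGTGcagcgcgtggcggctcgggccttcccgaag
The motif ACGTG, searched on both strands, was in the 250 bases before the start of all 8 genes and of 5 of the 15 other measured list members with a promoter in the table, compared with 16.6% of 27025 genes. In Ldha it overlaps the E-box CACGTG, which reads as the motif on both strands and which other factors also bind. A match describes the letters only, and the motif was chosen with the differences already known. The list was made of hypoxia-responsive and glycolytic genes, and the 8 were set apart by the values of these same arrays. The shares are thus a description, and whether HIF acts on these genes here was not tested.

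Among the glucose and glycolysis genes, Slc2a1, the glucose transporter GLUT1, read 10.82, 10.66 and 10.98 in shCT and 10.52, 10.49 and 10.53 in shLOXL2. Its difference was -0.31 ± 0.12 log2 units (limma, adjusted p of 0.976). Pgk1, phosphoglycerate kinase, read 10.53, 10.45 and 10.60 against 10.14, 10.25 and 10.18, or 79.3% of control (-0.34 ± 0.11, adjusted p of 0.851). These are bright genes with tight arrays, and the separation, though complete, was small. Ldha, lactate dehydrogenase A, differed by -0.16 ± 0.12 and Pgam1, phosphoglycerate mutase, by -0.09 ± 0.11 log2 units, also without overlap. Pfkl, Tpi1 and Hk2 overlapped between the groups, and Hk1, the constitutive hexokinase, was among the 4 genes with a difference above 0.

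The oxygen sensor Egln3 read 7.57, 6.82 and 7.93 in shCT against 6.07, 6.65 and 6.55 in shLOXL2. shCT replicate 2 lay close above the nearest knockdown array, and the difference was -1.02 ± 0.34 (limma, adjusted p of 0.842), or -0.35 with array weights. Ddit4, an inhibitor of mTORC1 induced by hypoxia and stress, read 8.05, 7.13 and 8.04 against 6.64, 7.10 and 7.03, a difference of -0.82 ± 0.26. Here too shCT replicate 2 was the lowest control array, and it lay close to the knockdown arrays. P4ha1 and P4ha2, catalytic subunits of collagen prolyl hydroxylase, differed by -0.61 ± 0.22 and -0.52 ± 0.24 log2 units. Vegfa, the angiogenic growth factor, read 7.20, 6.97 and 7.70 against 6.55, 6.91 and 7.11, with overlap (-0.43 ± 0.23), and Egln1 differed by -0.40 ± 0.19, also with overlap.

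2 genes outside the list that hypoxia is known to induce were among the 10 named for the largest differences downward. They were linked to hypoxia after their values were seen, and such genes outside the list were not counted over all genes. Fam162a, a mitochondrial protein, read 8.39, 8.57 and 8.81 in shCT and 8.02, 7.69 and 7.48 in shLOXL2, a difference of -0.86 ± 0.18 log2 units (limma, adjusted p of 0.49). Bhlhe40, a transcriptional repressor, read 7.07, 7.12 and 7.95 against 6.44, 6.41 and 6.65 (-0.88 ± 0.27, adjusted p of 0.806). Without shCT replicate 3, whose value stood above the other control arrays, the difference of Bhlhe40 was -0.59.

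**Figure D2:**
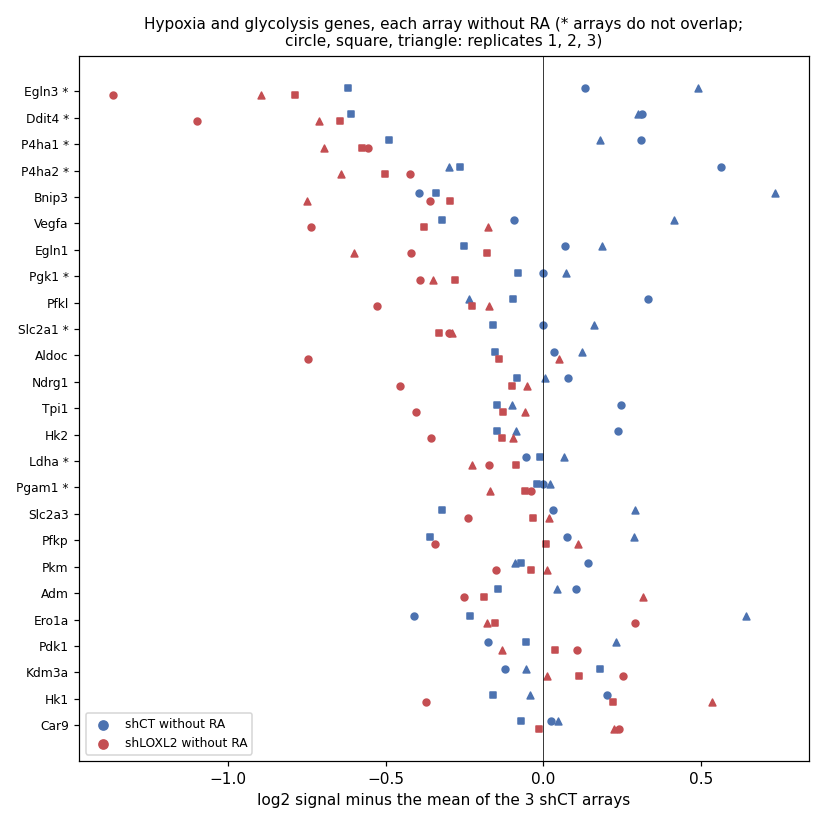
Signal of the 25 measured hypoxia and glycolysis genes on each array without RA, as log2 signal minus the mean of the 3 shCT arrays, ordered by their difference. Blue marks are shCT and red marks shLOXL2, circles, squares and triangles are replicates 1, 2 and 3, and an asterisk marks the 8 genes whose groups do not overlap. shCT replicate 2 is the lowest control array for Egln3, Ddit4 and P4ha1, and also in the mean of the list.

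Immediate early genes and feedback inhibitors of the FGF-ERK pathway were lower in part. In embryonic stem cells FGF4 signals through ERK, which switches on Egr1 and Fos and also the inhibitors of the Sprouty and Dusp families. Of 29 measured genes, 22 (75.9%) were lower, beside 48.3% of all genes, and 4 (13.8%) were lower without overlap, beside 4.04% of all genes, and none higher. The median was -0.08 log2 units, and -0.18 without shCT replicate 3, where 11 members (37.9%) were lower without overlap, beside 10.9% of all genes. Without shLOXL2 replicate 1 the count was 8 (27.6%), beside 9.03% of all genes, and without shLOXL2 replicate 3 it was 7 (24.1%), beside 7.56%. The count stayed at 4 (13.8%) without shCT replicate 1, beside 8.32%, and without shLOXL2 replicate 2, beside 6.78%. Without shCT replicate 2 it was 5 (17.2%), beside 7.12%. When single arrays were left out, 17 to 23 of the 29 genes had a lower mean in shLOXL2. After Egr1, the largest difference was in Spry4, an inhibitor of receptor tyrosine kinase signalling, which read 9.54, 9.55 and 9.25 in shCT and 9.10, 8.61 and 8.70 in shLOXL2 (-0.64 ± 0.19; limma, adjusted p of 0.768). Spry2 read 9.42, 9.09 and 8.88 against 8.80, 8.69 and 8.72, and Dusp1, a MAP kinase phosphatase, 7.87, 7.83 and 7.997 against 7.51, 7.75 and 7.75. The separation of both was narrow, and their differences were -0.39 ± 0.17 and -0.23 ± 0.14. Dusp6, a phosphatase specific for ERK, differed by 0.03 ± 0.17 and Fos by -0.33 ± 0.17, both with overlap. The ligand Fgf4 differed by 0.22 ± 0.14, with overlap.

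In the Hedgehog pathway Ptch1 and Gli1, 2 of 15 measured genes (13.3%, beside 4.04% of all genes), were lower in every knockdown array than in any control array. Hhip, another target gene, differed by 0.21 ± 0.23 log2 units with overlap. Ptch1, the receptor of Hedgehog ligands and itself a target gene, read 7.71, 7.72 and 7.90 in shCT and 7.21, 7.24 and 7.45 in shLOXL2. The difference was -0.48 ± 0.13 log2 units, 71.9% of control (limma, adjusted p of 0.632). Gli1, a transcription factor and target of the pathway, read 6.58, 6.70 and 6.84 against 5.96, 6.38 and 6.38 (-0.47 ± 0.16, adjusted p of 0.834). Both genes were separated without overlap, and both were also separated with RA, with differences of -0.87 and -0.64 log2 units. Smo, the signal transducer, differed by 0.22 ± 0.16, Gli2 by 0.05 ± 0.16, Gli3 by 0.12 ± 0.15, and the inhibitor Sufu by 0.06 ± 0.12, all with overlap. Over the 15 measured genes 11 were higher, beside 51.7% of all genes, and the median was 0.05 log2 units.

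The core pluripotency factors overlapped between the groups. Pou5f1 read 7.82, 7.71 and 7.76 in shCT and 7.87, 7.81 and 7.87 in shLOXL2, a difference of 0.08 ± 0.11. Sox2 differed by -0.07 ± 0.17 and Nanog by 0.25 ± 0.23 log2 units. Tbx3, a naive pluripotency factor, had the smallest p of its list: it read 8.34, 8.27 and 8.70 against 8.61, 8.997 and 9.11, a difference of 0.47 ± 0.16 (limma, adjusted p of 0.829) with overlap. Mycn, a growth-promoting factor, was lower without overlap, with 8.26, 8.38 and 8.08 against 8.05, 7.82 and 7.59 (-0.42 ± 0.17, adjusted p of 1). Of 17 naive pluripotency genes 9 were higher and 8 lower, and of 15 general ones 9 were higher and 6 lower, with medians of 0.12 and 0.08 log2 units. The second of these was -0.06 without shCT replicate 1 and -0.05 without shLOXL2 replicate 1. The separated genes were Klf5 among the naive ones (-0.13 ± 0.13) and Mycn among the general ones, both lower. They made up 5.88% and 6.67% of their lists, beside 8.23% of all genes separated. Esrp1, an epithelial splicing factor, and Cldn6, a tight junction protein of stem cells, were lower without overlap, at -0.43 ± 0.18 and -0.34 ± 0.17, while Vim, the intermediate filament protein vimentin, was higher at 0.50 ± 0.17. Of 17 epithelial genes 10 were higher, with a median of 0.03 and Cdh1, E-cadherin, at 0.006 ± 0.12, and 2 (11.8%) were separated. Of 15 genes of the epithelial-mesenchymal transition and mesenchymal list 10 were higher, with a median of 0.08. Vim and Acta2 (0.48 ± 0.19) were separated higher and the matrix protease Mmp2 lower (-0.46 ± 0.17). Together they are 20% of the list, beside 8.23% of all genes separated.

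The primitive endoderm genes followed a single control array. Of 20 measured, 16 (80%) were lower in shLOXL2 and the median was -0.23 log2 units, but only Gata6 was separated, at 7.61, 6.84 and 6.61 in shCT against 6.61, 6.59 and 6.54, where shCT replicate 3 and shLOXL2 replicate 1 were almost equal. The mean of the list per array was 7.06, 6.33 and 6.14 in shCT and 6.25, 6.24 and 6.26 in shLOXL2, so that shCT replicate 1 stood alone. Cubn, an endocytic receptor of visceral endoderm, read 8.88 on that array and 6.56 to 7.39 on the other 5. Without that array the median of the list was 0.02 and 11 of 20 genes were higher. In such bulk RNA, fewer cells of a type and less RNA per cell cannot be told apart.

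Genes of the 2-cell-like state, a rare state of stem cell cultures that resembles the early embryo, were high on a single knockdown array. Zscan4d read 6.51, 6.71 and 7.21 in shCT and 8.74, 7.28 and 6.63 in shLOXL2, and Zscan4c 6.77, 7.32 and 7.57 against 8.82, 7.13 and 7.27. In both, shLOXL2 replicate 1 was the highest of the 6 arrays and the others overlapped. Of 10 measured genes 8 were higher, with a median of 0.25 log2 units, which was 0.0005 without shLOXL2 replicate 1 and -0.07 with array weights. The closely related members of these families can share probes, so single values are uncertain.

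**Figure D3:**
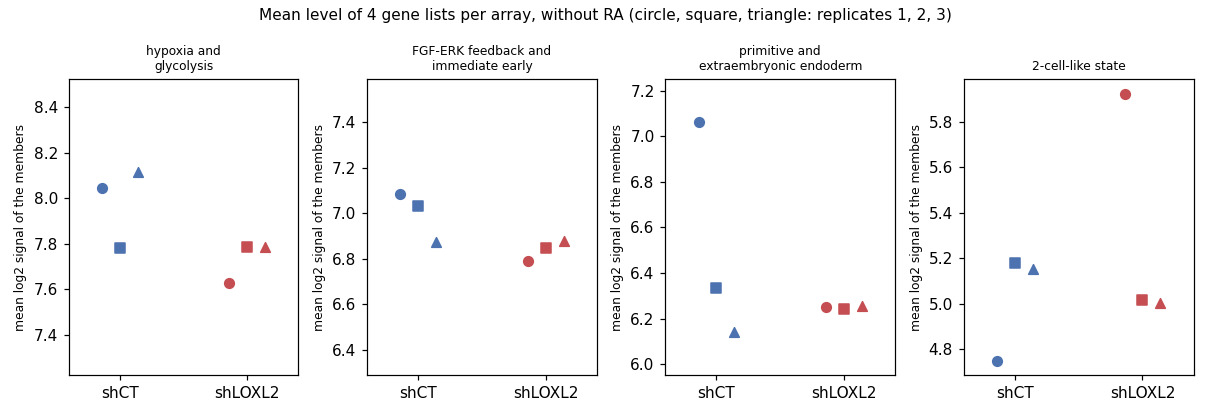
Mean log2 signal of the measured members of 4 gene lists on each array without RA, with shCT in blue and shLOXL2 in red. shCT replicate 1 (circle) is high for the endoderm genes at 7.06, shLOXL2 replicate 1 (circle) is high for the 2-cell-like genes at 5.92, and in the hypoxia and glycolysis list shCT replicate 2 (square), at 7.78, lies among the knockdown arrays.

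Of 20 measured imprinted genes, 12 (60%) were lower, beside 48.3% of all genes, and 3 (15%) were separated, all of them lower, beside 4.04% of all genes. Peg3, a zinc finger protein expressed from the paternal allele, read 7.41, 7.58 and 7.54 in shCT and 7.31, 6.59 and 6.45 in shLOXL2, a difference of -0.73 ± 0.23 (limma, adjusted p of 0.806) in which shLOXL2 replicate 1 stayed near control. Phlda2, a growth restrictor of the placenta expressed from the maternal allele, read 8.91, 8.76 and 8.46 against 7.75, 8.22 and 8.19 (-0.66 ± 0.16, adjusted p of 0.603). Its neighbour in the same imprinted domain, the cell cycle inhibitor Cdkn1c, differed by -0.64 ± 0.25 with overlap, and Sgce by -0.32 ± 0.15 without. The median of the list was -0.03 log2 units.

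Single stress and signalling genes were separated in lists whose medians lay closer to 0 than the differences of those genes. Separated genes made up 9.52% of the list of Ddit3, 16.7% of the p53 targets and 8.7% of the interferon and RNA sensor genes. They made up 9.09% of both the Wnt pathway and the RNA interference lists, beside 8.23% of all genes. Ddit3, the CHOP factor of the integrated stress response, read 6.28, 6.03 and 6.33 in shCT and 5.28, 5.79 and 5.68 in shLOXL2 (-0.63 ± 0.16; limma, adjusted p of 0.603), while the 21 measured genes of its list had a median of -0.09, which was 0.03 without shLOXL2 replicate 1. Sesn1, a p53 target that responds to oxidative stress, read 5.58, 5.75 and 5.61 in shCT and 6.12, 6.27 and 6.30 in shLOXL2 (0.58 ± 0.13, adjusted p of 0.49), whereas 13 of 18 p53 targets were lower and their median was -0.14. Without shLOXL2 replicate 3 that median was 0.003, and without shCT replicate 3 it was -0.003. Of the 18 p53 targets, 2 were separated higher and 1 lower. Bst2, an interferon-induced membrane protein, was lower without overlap (-0.42 ± 0.14). The 23 interferon and RNA sensor genes had a median of 0.10, with 2 separated lower, Bst2 among them, and none separated higher. Notum, an inhibitor of Wnt ligands, was higher by 0.53 ± 0.15, and the 22 Wnt pathway genes had a median of 0.01. Ago4 was higher by 0.45 ± 0.20 at a signal of 2.81 to 3.59, and no other of the 11 measured RNA interference genes was separated. Of 36 cytosolic ribosomal protein genes, 26 were lower, with a median of -0.05 and none separated, and of 28 Polycomb and H3K4 methylation genes 14 were lower and none was separated.

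**Figure D4:**
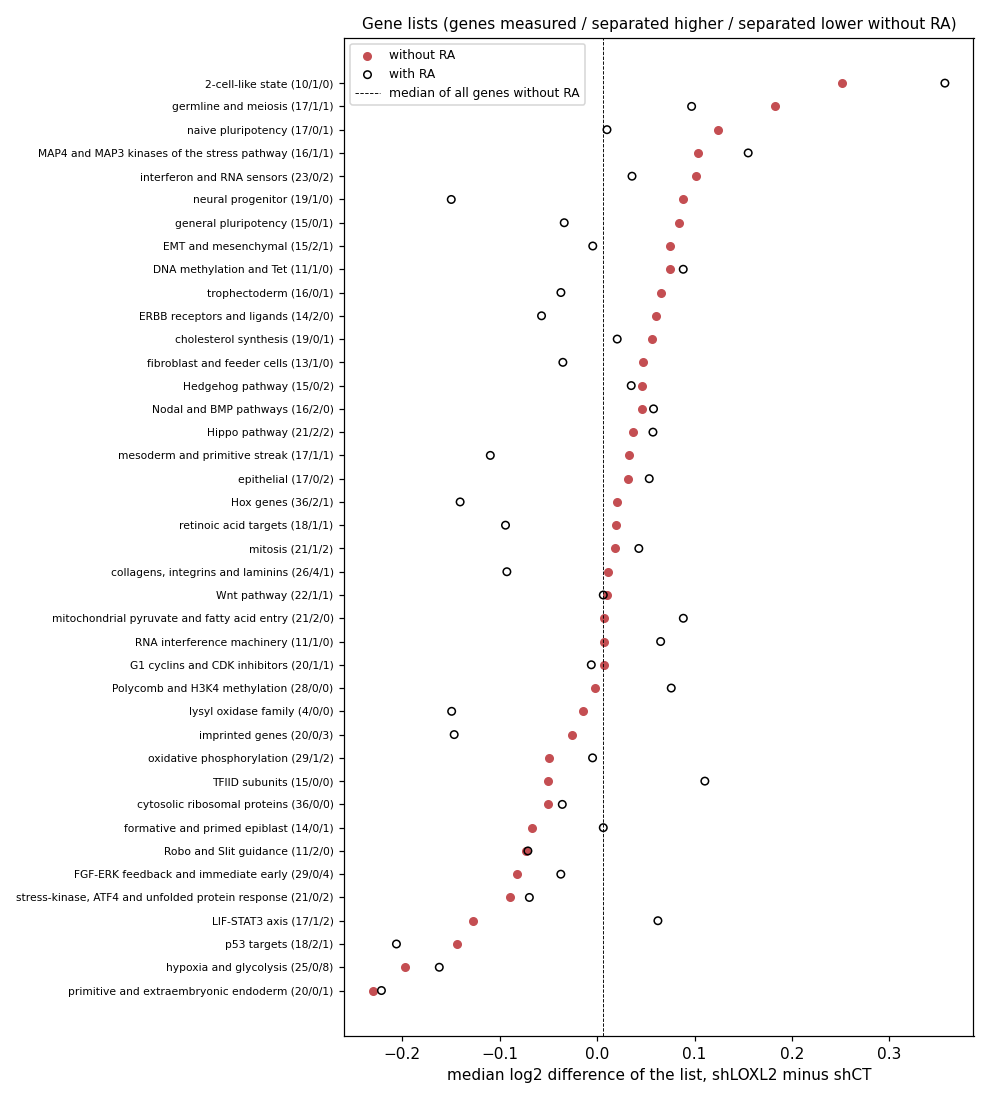
Median log2 difference, shLOXL2 minus shCT, of the gene lists drawn, without RA (red) and with RA (open circles), ordered by the value without RA. Numbers after a name are the genes measured, those separated higher and those separated lower without RA, and the dashed line is the median of all genes, 0.006. The endoderm and the hypoxia and glycolysis lists lie lowest, and the 2-cell-like list lies highest.

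The knockdown differences with RA come from other arrays than those without RA, though limma's estimate of the spread of each gene is shared. With RA, 0 genes (0%) had an adjusted p under 0.05 in limma, 1100 (4.96%) had an unadjusted p under 0.05, and the groups did not overlap for 2770 genes (12.5%). In both states 339 genes were separated in the same direction, 188 higher and 151 lower, which is 18.6% of those separated without RA and 12.2% of those separated with RA, and 68 were separated in opposite directions. Of the genes separated without RA, 63.6% had the same sign with RA, beside 56.7% of all genes. Over all genes the differences in both states correlated at 0.235 (Pearson) and 0.195 (Spearman), a description over genes that share arrays.

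Of the 26 genes that met the naming rule through a small p or a large difference, 25 had the same direction with RA, beside 56.7% of all genes. The exception was the predicted gene Gm15080, with -0.88 ± 0.16 without RA and 0.18 ± 0.16 with RA. Of the 26 genes, 18 were also separated with RA in the same direction, beside 18.6% of all genes separated without RA. With RA, Fam162a and Ddit4 differed by -0.61 and -0.62 log2 units, and Map4k4 and Tbc1d5 by -0.46 and -0.54, each without overlap. Robo4, Sohlh2, Epas1 and Calcoco2 were higher with RA by 0.64, 0.62, 0.47 and 0.56 log2 units, also without overlap. Erbb3 differed by 0.76 ± 0.12 with RA. The hypoxia and glycolysis list had 22 of 25 genes lower with RA, beside 48.5% of all genes, and a median of -0.16. Of the 25 genes, 6 were separated lower, beside 1305 of 22180 genes (5.88%). The 6 include Slc2a1, Pgk1, Pfkl and Ddit4.

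The difference of Egr1 was near 0 with RA. It was -0.98 ± 0.15 without RA and -0.14 ± 0.15 with RA, where its mean was 5.64 in shCT and 5.50 in shLOXL2. The contrast between the states was 0.84 ± 0.21 log2 units (limma, adjusted p of 1). Kdr, the VEGF receptor of early mesoderm, read, without RA, 5.08, 4.73 and 4.13 against 5.40, 5.17 and 5.41 (0.68 ± 0.22), and differed by -0.16 ± 0.22 with RA, a contrast of -0.84 ± 0.31 (adjusted p of 1). No gene passed the test of a difference between the states: 0 of 22180 (0%) had an adjusted p under 0.05 in limma, and 652 (2.94%) had an unadjusted p under 0.05.

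**Figure D5:**
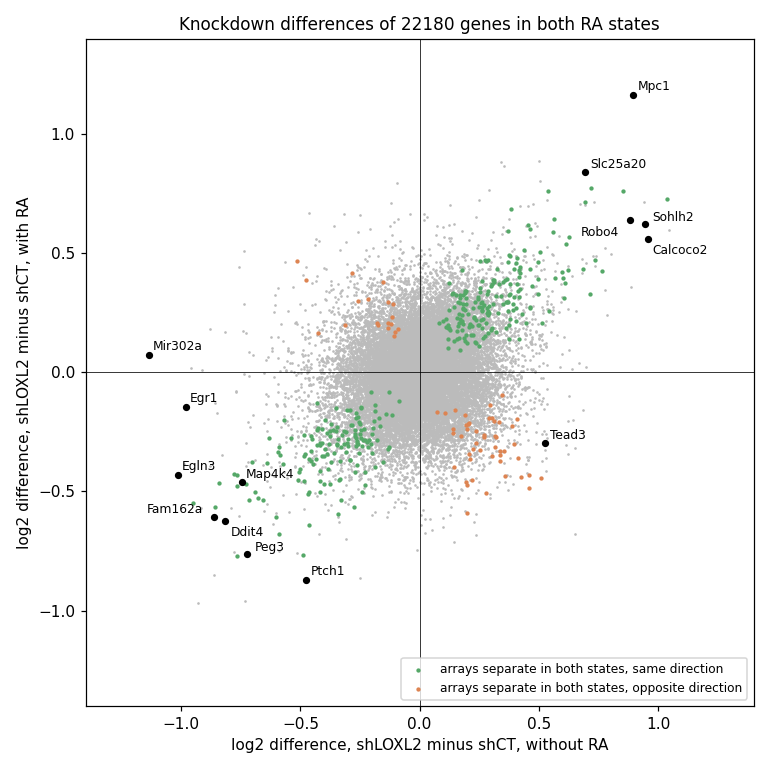
Knockdown difference of each of 22180 genes without RA (horizontal axis) and with RA (vertical axis), as log2 shLOXL2 minus shCT. Green points are the 339 genes separated in the same direction in both states, orange points the 68 separated in opposite directions, and black points are named. Mpc1 lies far out in the upper right, at 0.90 and 1.17, and Egr1 lies near 0 on the vertical axis.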

How the data were processed

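Per the labels' protocols, Trizol was used to isolate total RNA, of which 100 ng was labelled for Affymetrix whole-transcript arrays. The authors deposited 1 log2 signal per transcript cluster and array. Per the submitters' processing notes the tools were RMA, limma and R 3.1.1, without roles, and the values have the range and close medians of log2 signals normalized between arrays. Such normalization takes out shifts shared by most genes. Scanner files were not used here.

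Clusters were named through the platform annotation: of 41345, 23521 held a single gene, 1814 more than 1 and 16010 had no name here. RefSeq's gene table (GRCm38.p6) matched 23328 of the first kind and not the other 193. The brightest cluster stood for each of 1082 genes with more than 1. Loxl2 and Taf10 lie only on shared clusters and were fitted over all clusters.

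limma 3.58.1 in R 4.3.3 (statmod 1.5.0 for the array weights) was fitted to all 12 arrays with 1 mean per group and no filter, and Benjamini-Hochberg adjusted p-values had a threshold of 0.05. Errors are standard errors of this fit. Only the Loxl2 and Taf10 clusters also had exact permutation tests. The fit was tested on simulated data with independent noise, so the axis within groups was not part of that test. Groups of 3 that do not overlap, called separated, are a count without a test. The number of arrays limits the precision.

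Genes were named by rule: the Loxl2 and Taf10 clusters, the 10 smallest p-values, the 10 largest rises and falls among separated genes of at least median signal (without predicted or numbered symbols, small RNAs and odour receptors), and up to 3 members per list with an unadjusted p under 0.05, otherwise the smallest p. Other list members were named for their role after their values were seen. Some genes that met the rule, and some lists, are not reported here. Members, the gene lists and tests were chosen with earlier results of these data known. Alternatives were a replicate block, moderation by trend, a dim-gene filter, further normalization or centring, averaged clusters, only the 6 arrays, array weights, all clusters, leaving out each array and, added after the data were seen, the axis within groups as covariate.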

Additional observations from a re-analysis of the deposited data

Results flagged for a closer look

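Tead3, a TEAD transcription factor of the Hippo pathway, was separated in opposite directions without and with RA. Without RA it read 5.03, 5.23 and 5.08 log2 units in shCT and 5.58, 5.53 and 5.80 in shLOXL2, a difference of 0.5256 ± 0.13 log2 units. With RA the difference was -0.30 ± 0.13, and all 3 shLOXL2 arrays lay below all 3 shCT arrays. The contrast between the states was -0.82 ± 0.19 log2 units, with an unadjusted p of 0.000763 and an adjusted p of 1 over all genes in limma. It is 1 of 68 genes separated in opposite directions.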

How the results depend on the processing

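The count of 0 called genes without RA was unchanged by the replicate block, trend and robust moderation, the dim-gene filter, further normalization, centring, averaged clusters, all clusters, the fit to 6 arrays and leaving out single arrays. Array weights called 2875 genes (1551 higher, 1324 lower) and the axis covariate 22 (6 higher, 16 lower, Map4k4, Egr1, Robo4 and Slc25a20 among them); with RA each called 9. Weights and axis were computed from these same values, so these counts are not independent evidence. The cause was not tested. Genes with an unadjusted p under 0.05 numbered 607 with the dim-gene filter, 6779 with array weights, 2130 with the axis covariate and 805 to 1653 without single arrays. Separated genes numbered 985 of the brighter genes and 3081 to 4960 without single arrays, where fewer arrays have to be separated.

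Loxl2 cluster 17301670 was 0.0803 with array weights and 0.0153 without shCT replicate 3 (range without single arrays -0.329 to 0.0153), and cluster 17301634 kept its sign (-0.74 to -0.46). The median of the hypoxia and glycolysis list was -0.0534 and that of the Hedgehog list 0.1226 with array weights. Without single arrays the FGF-ERK median lay between -0.179 and -0.0646. Of 1113 values of the 75 named genes under alternatives, 1 reversed, Rps16 at -0.0163 without shCT replicate 3 (range without single arrays -0.0163 to 0.4748), and 64 passed the threshold, 51 of them with array weights and the others with the axis covariate.

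The labels name no pairing. Same-numbered arrays without RA did not deviate together from their group means (correlations -0.548, -0.048 and -0.461). With 3 arrays per group and 1 axis holding 49.4% of the variance within groups, this cannot show whether the numbers pair the arrays. With the replicate number as a block, 0 genes were called and 962 had an unadjusted p under 0.05.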
